A study of Mus musculus with 383 samples.

Results

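AP-1 is a family of dimeric transcription factors, and 10 of its genes were described here across single cells of mouse skin squamous cell carcinomas: Fos, Fosb, Fosl1 and Fosl2 of the Fos family, Jun, Junb and Jund of the Jun family, and the related basic leucine zipper genes Atf3, Batf3 and Maff. They were taken by name from the 49585 genes of the count table, and all 10 were found. The cells were Epcam-negative or Epcam-positive tumour cells, both sorted as YFP+ from skin tumours of mice whose alleles include Lgr5CreER, p53fl/fl and Rosa26-YFP+/+. In these mice a Cre recombinase under control of Lgr5, a gene of hair follicle stem cells, switches on YFP and removes p53, so that YFP marks recombined cells and both populations share these alleles. All cells also shared a digestion in collagenase type I for 1 hour at 37 °C, and no undigested sample was analysed here, so that levels in the tumour and levels after digestion cannot be told apart. The comparison asks how tumour cells without Epcam, an adhesion protein of epithelia, differ in transcription from those that keep it.

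Fos and Jun proteins bind DNA as pairs joined through a leucine zipper. Jun proteins can pair with each other or with Fos proteins, whereas Fos proteins need a Jun partner. Fos, Fosb, Jun, Junb and Atf3 are immediate early genes: growth factors, mitogen-activated kinases and stress switch them on within minutes, before new protein is made. In the epidermis AP-1 factors take part in proliferation, wound repair, inflammation and tumour growth.

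The proximal promoters of 5 members, early response genes of the Fos and Jun families and Atf3, are shown to let their start regions be compared. They are 5 of the 6 members whose windows held a match to a motif searched. Each sequence is the 250 bases before the start site in the RefSeq annotation of GRCm38.p6, written in the direction of transcription, with capitals for the cyclic AMP response element motif TGACNTCA, its core TGACG, or the TATA box TATAAA. Of the 10 members, all but Fosl1 were matched, 9 in all.
Fos, chr12:85473640-85473889, plus strand: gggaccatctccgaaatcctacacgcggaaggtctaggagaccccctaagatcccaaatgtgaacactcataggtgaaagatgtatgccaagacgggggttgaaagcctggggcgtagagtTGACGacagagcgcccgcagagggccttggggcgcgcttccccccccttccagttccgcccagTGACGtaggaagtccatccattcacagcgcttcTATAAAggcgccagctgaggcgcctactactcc
Fosb, chr7:19310046-19310295, minus strand: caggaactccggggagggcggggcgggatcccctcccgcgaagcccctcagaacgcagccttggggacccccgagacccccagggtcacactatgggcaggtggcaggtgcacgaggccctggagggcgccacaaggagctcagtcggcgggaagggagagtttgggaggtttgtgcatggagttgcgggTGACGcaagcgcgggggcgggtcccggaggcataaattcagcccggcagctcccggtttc
Jun, chr4:95052223-95052472, minus strand: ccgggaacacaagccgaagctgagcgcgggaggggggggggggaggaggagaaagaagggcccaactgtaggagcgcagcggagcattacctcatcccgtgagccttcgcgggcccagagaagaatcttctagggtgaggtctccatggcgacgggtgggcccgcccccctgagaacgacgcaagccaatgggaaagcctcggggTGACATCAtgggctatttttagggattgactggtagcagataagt
Junb, chr8:84978749-84978998, minus strand: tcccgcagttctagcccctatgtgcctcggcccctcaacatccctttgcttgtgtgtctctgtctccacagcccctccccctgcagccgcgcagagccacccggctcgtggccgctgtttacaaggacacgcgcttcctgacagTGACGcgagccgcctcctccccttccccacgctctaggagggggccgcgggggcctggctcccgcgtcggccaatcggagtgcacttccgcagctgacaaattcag
Atf3, chr1:191183334-191183583, minus strand, a start inside the annotated gene: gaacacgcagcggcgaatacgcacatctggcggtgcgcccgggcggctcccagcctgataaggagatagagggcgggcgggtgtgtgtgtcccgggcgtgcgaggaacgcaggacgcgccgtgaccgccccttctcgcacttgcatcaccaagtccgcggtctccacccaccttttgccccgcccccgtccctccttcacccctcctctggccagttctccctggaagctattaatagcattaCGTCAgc
Counted from the start site, the Fos window held TGACG from -129 and from -66 and a TATA box from -33. Fosb held TGACG from -60 and Junb from -106, and Atf3 held it on the other strand from -7. The Jun window held TGACNTCA from -45, in the form TGACATCA, the site through which Jun is known to act on its own gene. Both strands were searched for all motifs except the TATA box. Among all 32851 windows of the same length in the table, 17.8% held TGACG, 7.49% TGACNTCA and 7.59% TATAAA. The AP-1 motif TGANTCA, present in 6.75% of all windows, and the CArG box, present in 1.47%, were in none of the members' 11 windows. The windows of Fosl2, Jund and Batf3, not shown, held no match to any motif searched. The Fosl2 and Batf3 windows lie inside the annotated genes, in exon throughout for Fosl2 and in part for Batf3. The Jund window lies upstream of the annotated gene and does not reach it. The bases just before the annotated starts of these genes were thus not searched, and nothing follows for them from the lack of matches. Maff, with windows at several starts, held TGACGTCA from -29 at one of them and TGACATCA from -45 at another. The serum response element for which Fos is known lies farther upstream than the window.

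Of 310 labelled Epcam-negative cells 47 were left out by filters on depth and quality, and of 70 Epcam-positive cells 8, which left 62. Kept cells had 104330 to 900492 gene reads (median 414731) in the Epcam-negative and 109743 to 730528 (median 413142) in the Epcam-positive population, 107313931 and 24840769 reads in sum. The sorted identities were checked against marker genes. Epcam was at 22.7 counts per 1000000 gene reads (CPM) in Epcam-negative and 1069 CPM in Epcam-positive cells, the basal keratin Krt14 at 1836 and 13311 CPM, and the mesenchymal filament gene Vim at 5809 and 592 CPM. Markers of other cell types were low as whole lists: the 6 immune markers summed to 20.7 CPM in Epcam-negative and 25.4 CPM in Epcam-positive cells, and the 4 endothelial markers to 4.66 CPM in Epcam-negative and 15.7 CPM in Epcam-positive cells. Ptprc, which defines immune cells, was at 0.093 CPM in Epcam-negative cells and had no read in Epcam-positive cells, and Cd68, the one immune marker at 10 CPM or more, was at 7.99 CPM in Epcam-negative and 15.3 CPM in Epcam-positive cells. The well labelled 0 cells in plate row B, among the Epcam-positive wells, went against its label: it held 99241 gene reads, 8248 genes and 695 CPM of Epcam. The other well labelled 0 cells, among the Epcam-negative wells, held 4018 gene reads, with 76.2% of its reads from the spike-in RNA. Neither well enters a comparison. The labels name no animal, so each population counts as 1 sample and no test between them was made. Intervals are 95% intervals that cover only the counting of reads or, for shares, of cells. Epcam-negative cells sat in other plate rows than Epcam-positive cells, so that population and row cannot be told apart, but plate columns 1 to 12 and 13 to 24 each held cells of both.

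Scaled to gene reads, most members were somewhat higher in Epcam-negative cells. Fosb and Fosl2 had the highest ratios. The sizes, and for Fos and Maff also the sign, depended on the scaling. Genes under 10 CPM in both populations were not counted as measured, which left out Batf3. Each ratio divides the Epcam-negative level by the Epcam-positive level after adding 1 CPM to both, and is given as log2. Of the 9 measured members, 7 were higher and 2, Fosl1 and Atf3, lower in Epcam-negative cells. The share of all genes that were higher by any amount was not counted, so the count of 7 has no such share beside it. Those at least 2-fold higher were 2, Fosb and Fosl2, where 15.3% of all 9574 measured genes were, and 0 were at least 2-fold lower, where 12.9% of all genes were. For 9 genes, a count of 2 is near that share of all genes and does not set the members apart. The median log2 ratio of the 9 was 0.37, beside -0.08 for all measured genes, whose middle 50% lay between -0.60 and 0.55. When cells were scaled by spike-in reads in place of gene reads, no member was 2-fold higher, 1 (Atf3) was 2-fold lower and the median was 0.015, beside -0.45 for all genes. With that scaling Fos (-0.12) and Maff (-0.02) were also lower in Epcam-negative cells, and Jun was at 0.015. In plate columns 1 to 12 the count of members 2-fold higher was also 0, against 2 in columns 13 to 24. In median cells, gene reads per spike-in read were 157.2 in Epcam-negative against 221.1 in Epcam-positive cells. The plot of ratios shows these settings together.

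**Figure D1:**
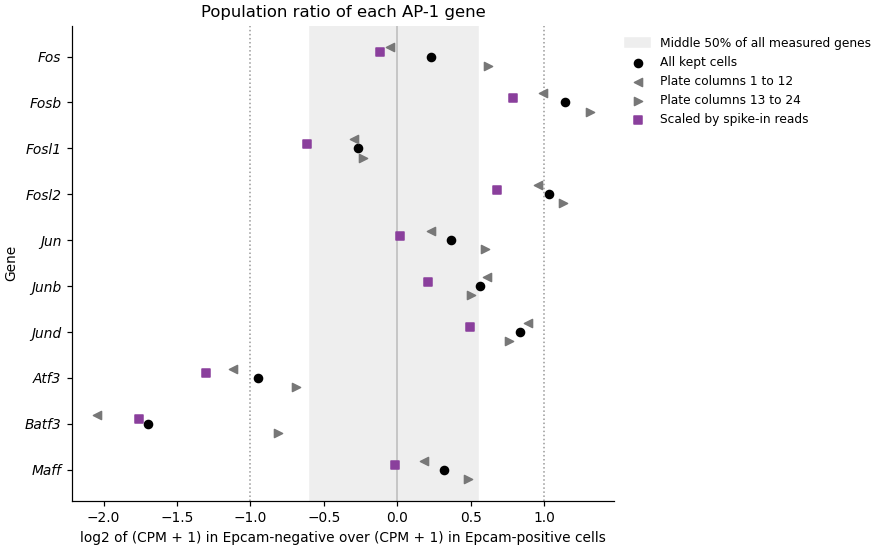
log2 ratio of each AP-1 gene (vertical axis), Epcam-negative over Epcam-positive, on the (CPM + 1) scale (horizontal axis): black circles, all kept cells; grey triangles, plate columns 1 to 12 and 13 to 24; purple squares, scaling by spike-in reads. The grey band holds the middle 50% of all measured genes (-0.60 to 0.55), and dotted lines mark 2-fold; Fosb and Fosl2 lie farthest right and Atf3 and Batf3 farthest left.

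Fos, the founding member and the usual partner of Jun, was the most abundant of the set. The gene (ENSMUSG00000021250.13) lies on the plus strand of chromosome 12 from 85473890 to 85477273 of GRCm38. Its level per cell was lowest at 5.77, median 2211 and highest at 17920.1 CPM in Epcam-negative cells, against lowest 14.8, median 2167 and highest 15771 CPM in Epcam-positive cells. No kept cell lacked a Fos read, and the populations overlapped almost fully: 50.6% of Epcam-negative cells were above the Epcam-positive median. Summed over cells, Fos was at 3345 CPM in Epcam-negative and 2848 CPM in Epcam-positive cells, a log2 ratio of 0.23 (0.22 to 0.24). By CPM it ranked 20 among all genes in Epcam-negative against 23 in Epcam-positive cells. The ratio did not keep its sign in every setting: it was -0.05 in plate columns 1 to 12 (Epcam-negative 3033 and Epcam-positive 3144 CPM), 0.62 in columns 13 to 24 (Epcam-negative 3785 and Epcam-positive 2465 CPM) and -0.12 with spike-in scaling.

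Fosb, a Fos family gene that also makes a shortened splice form, had the largest ratio of the measured members. It lies on the minus strand of chromosome 7 from 19302696 to 19310051 (ENSMUSG00000003545.3). Epcam-negative cells ran from 0 over a median of 796 to 4993 CPM, against 0, 287.8 and 4262 CPM in Epcam-positive cells. Both populations spanned a similar range, but 78.7% of Epcam-negative cells were above the Epcam-positive median. The sums were 904 CPM in Epcam-negative and 409 CPM in Epcam-positive cells, a log2 ratio of 1.14 (1.11 to 1.17). It was 0.99 in plate columns 1 to 12, 1.31 in columns 13 to 24 and 0.79 with spike-in scaling. With each cell thinned to 100000 gene reads and a gene called present at 5 reads, which corresponds to 50 CPM, Fosb was present in 90.9% (86.7 to 94.1) of Epcam-negative and 80.6% (68.6 to 89.6) of Epcam-positive cells.

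Fosl1 and Fosl2 encode Fra-1 and Fra-2, Fos relatives without the strong activation domain of Fos, and they differed between the populations in opposite directions. Fosl1 (ENSMUSG00000024912.5, chromosome 19, 5447547 to 5455946, plus strand) ran from 0 over a median of 52.8 to 1489 CPM in Epcam-negative cells, against 0, 109.6 and 1501 CPM in Epcam-positive cells. It was present in 53.6% (47.4 to 59.8) of Epcam-negative and 77.4% (65.03 to 87.1) of Epcam-positive cells, and 50 Epcam-negative and 6 Epcam-positive cells had no read of it. Its sums were 144.6 CPM in Epcam-negative and 174.1 CPM in Epcam-positive cells, a log2 ratio of -0.27 (-0.31 to -0.22). A single Epcam-positive cell gave 18.5% of that population's Fosl1 reads, and without the top cell of each population the sums were 138.7 CPM for Epcam-negative and 144.9 CPM for Epcam-positive cells. The gap in the share of cells depended on the number of reads required: at 20 thinned reads Fosl1 was present in 25.9% of Epcam-negative and 27.4% of Epcam-positive cells.

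Fosl2 (ENSMUSG00000029135.10, chromosome 5, 32135801 to 32157842, plus strand) ran from 0 over a median of 162.8 to 1983 CPM in Epcam-negative cells, against 0, 60.2 and 2579 CPM in Epcam-positive cells. The ranges overlapped, with 74.9% of Epcam-negative cells above the Epcam-positive median. Its sums were 287.2 CPM in Epcam-negative and 140.2 CPM in Epcam-positive cells, a log2 ratio of 1.03 (0.98 to 1.08), just past 2-fold. The mean of the cells' CPM gave 0.68, and without the top cell of each population it was 1.21. Fosl2 was present in 77.6% (72.04 to 82.5) of Epcam-negative and 59.7% (46.4 to 71.9) of Epcam-positive cells. At 5 thinned reads, cells with Fosl1 but not Fosl2 made up 6.46% (3.81 to 10.1) of Epcam-negative and 25.8% (15.5 to 38.5) of Epcam-positive cells.

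**Figure D2:**
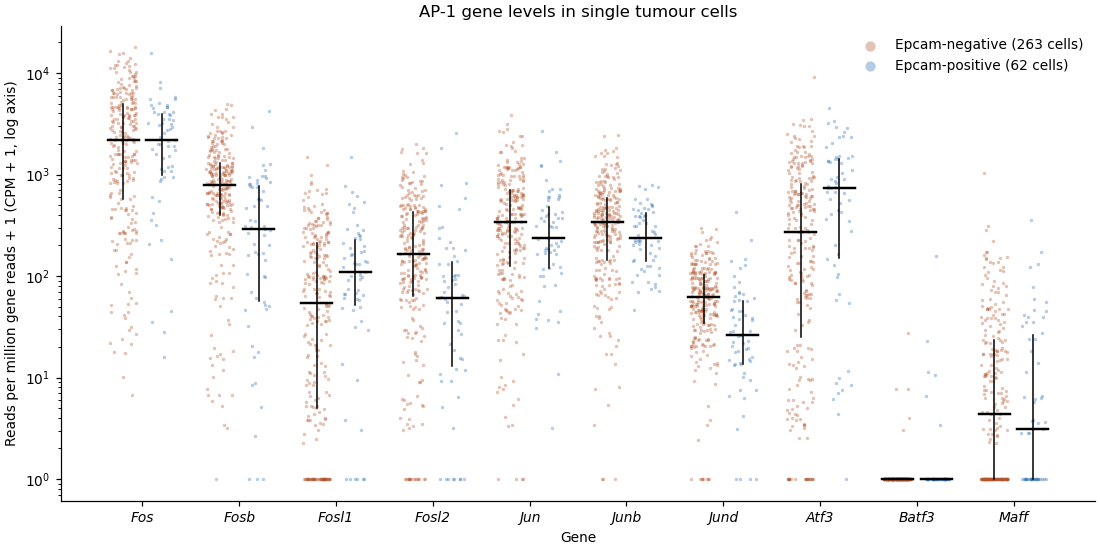
Level of each AP-1 gene in every kept cell, as CPM + 1 on a log axis, for the kept Epcam-negative cells (brown, left) and the 62 Epcam-positive cells (blue, right); horizontal bars are medians and vertical bars quartiles. Fos medians lie side by side (Epcam-negative 2211 and Epcam-positive 2167 CPM), Fosb and Fosl2 are higher and Atf3 and Fosl1 lower in the median Epcam-negative cell, and Batf3 is at 0 in nearly all cells.

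The Jun family was higher in Epcam-negative cells by less than 2-fold when scaled to gene reads. With spike-in scaling the log2 ratios were 0.015 for Jun, 0.21 for Junb and 0.49 for Jund. Jun (ENSMUSG00000052684.4, chromosome 4, 95049034 to 95052222, minus strand), the target of the Jun kinases, ran from 0 over a median of 337 to 3824 CPM in Epcam-negative cells, against 2.16, 233.4 and 2656 CPM in Epcam-positive cells. Its sums were 538.4 CPM in Epcam-negative and 417.6 CPM in Epcam-positive cells, which gave a log2 ratio of 0.37 (0.34 to 0.40), and it was present in 87.5% of Epcam-negative and 88.7% of Epcam-positive cells. Junb (ENSMUSG00000052837.6, chromosome 8, 84974484 to 84978718, minus strand), which often opposes Jun, ran from 0 over 338 to 2473 CPM in Epcam-negative cells, against 45.6, 238.2 and 793 CPM in Epcam-positive cells. The 62 Epcam-positive cells all had Junb reads and lay in a narrower range. Its sums were 453 CPM in Epcam-negative and 306.7 CPM in Epcam-positive cells, which gave a log2 ratio of 0.56 (0.53 to 0.60). Junb overlaps Prdx2, a peroxiredoxin gene on the opposite strand at 441.7 CPM in Epcam-negative and 438.4 CPM in Epcam-positive cells, and reads of the 2 genes may be mixed, since no source used here gives the strand setting of the counting.

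Jund (ENSMUSG00000071076.6, chromosome 8, 70698949 to 70700616, plus strand), known as a more constant member that restrains growth in other cell types, was lower than Jun and Junb in both populations. It ran from 0 over a median of 60.7 to 299.7 CPM in Epcam-negative cells, against 0, 25.2 and 427.6 CPM in Epcam-positive cells, and 81.4% of Epcam-negative cells were above the Epcam-positive median, the highest such share of the 10 members. Its sums were 71.5 CPM in Epcam-negative and 39.6 CPM in Epcam-positive cells, a log2 ratio of 0.84 (0.74 to 0.93). It was present in 62.4% (56.2 to 68.2) of Epcam-negative and 27.4% (16.9 to 40.2) of Epcam-positive cells. The medians lie on either side of the 50 CPM at which a gene is called present, and the shares depended on it: at 1 thinned read Jund was present in 93.2% of Epcam-negative and 83.9% of Epcam-positive cells, and at 20 reads in 3.80% of Epcam-negative and 1.61% of Epcam-positive cells.

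Atf3, a stress-induced factor that pairs with Jun proteins and can repress transcription, was the member with the clearest lower level in Epcam-negative cells. The gene (ENSMUSG00000026628.13) lies on the minus strand of chromosome 1 from 191170296 to 191218039. It ran from 0 over a median of 267.9 to 9048 CPM in Epcam-negative cells, against 0, 731 and 4562 CPM in Epcam-positive cells. Only 26.2% of Epcam-negative cells were above the Epcam-positive median, although the single highest cell was Epcam-negative. The sums were 554 CPM in Epcam-negative and 1071 CPM in Epcam-positive cells, a log2 ratio of -0.95 (-0.97 to -0.93), which was -1.12 in plate columns 1 to 12, against -0.69 in columns 13 to 24. Atf3 was present in 71.5% (65.6 to 76.9) of Epcam-negative and 82.3% (70.5 to 90.8) of Epcam-positive cells.

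Maff (ENSMUSG00000042622.13, chromosome 15, 79346621 to 79359076, plus strand), a small Maf protein without an activation domain of its own, was low in both populations. Its sums were 24.0 CPM in Epcam-negative and 19.1 CPM in Epcam-positive cells, a log2 ratio of 0.32 (0.18 to 0.46), and it was present in 16.7% of Epcam-negative and 14.5% of Epcam-positive cells. Its highest cells had 1040.5 CPM among Epcam-negative and 358 CPM among Epcam-positive cells, while the medians were 3.36 CPM in Epcam-negative and 2.11 CPM in Epcam-positive cells. Batf3 (ENSMUSG00000026630.9, chromosome 1, 191097847 to 191108945, plus strand), needed for a class of dendritic cells, had 26 reads in all Epcam-negative and 75 in all Epcam-positive cells, 0.24 and 3.02 CPM. Of these, 65.4% of the Epcam-negative and 82.7% of the Epcam-positive reads came from 1 cell each. It was thus not measured at the minimum used, and without those cells it was at 0.084 CPM in Epcam-negative and 0.53 CPM in Epcam-positive cells. Of 6 dendritic and Langerhans markers, Itgax and Cd207 had no read in either population, and Xcr1 was at 0.084 CPM in Epcam-negative cells and had no read in Epcam-positive cells. Among the 6, Cd74 alone reached 10 CPM, at 3.97 CPM in Epcam-negative and 30.2 CPM in Epcam-positive cells.

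Per kilobase of exon, the order of the members was similar in both populations. Fos led with 1422 CPM per kilobase in Epcam-negative against 1211 in Epcam-positive cells, followed by Atf3 with 257.2 in Epcam-negative against 497.1 in Epcam-positive cells. Junb and Jun came next, at 197.01 and 168.8 in Epcam-negative cells and close together at 133.3 and 130.96 in Epcam-positive cells. Fosb at 144.7 was above Fosl1 at 71.1 in Epcam-negative cells, and at 65.6 below Fosl1 at 85.6 in Epcam-positive cells. Jund, Fosl2, Maff and Batf3 followed in that order in both. As a share of the Fos family per kilobase, Fos made up 85.3% in Epcam-negative against 87.97% in Epcam-positive cells, and it was the highest of the 4 in 82.9% of Epcam-negative and 87.1% of Epcam-positive cells. Fosb made up 8.68% of the family in Epcam-negative against 4.76% in Epcam-positive cells, and Fosl1 4.27% against 6.22%. Within the Jun family, Junb, Jun and Jund made up 48.2%, 41.3% and 10.5% in Epcam-negative cells, and 46.3%, 45.5% and 8.24% in Epcam-positive cells. All 10 members took 0.632% of gene reads in Epcam-negative against 0.543% in Epcam-positive cells.

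Most cells had several members at once. The median cell had 7 of the 10 present in the Epcam-negative and 6.5 in the Epcam-positive population, and at least 7 were present in 59.3% (53.1 to 65.3) of Epcam-negative and 50.0% (37.02 to 62.98) of Epcam-positive cells. Fos and Jun were present together in 85.6% of Epcam-negative and 85.5% of Epcam-positive cells. Cells with no Fos family member present were 4 among Epcam-negative and 1 among Epcam-positive cells, and cells with no Jun family member 9 among Epcam-negative and 0 among Epcam-positive cells, which for 0 of 62 allows a share of up to 5.78% (Clopper-Pearson). Cells with 3 or fewer members were rare, 6.08% of Epcam-negative and 4.84% of Epcam-positive cells.

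Across the cells of each population the members did not vary as 1 block. Fos, Jun and Atf3 went up and down together, and Fosl1 and Fosl2 went together but not with Fos. Spearman's rho of log2(CPM + 1) between Fos and Jun was 0.66 in Epcam-negative against 0.44 in the 62 Epcam-positive cells, between Fos and Atf3 0.41 and 0.57, and between Fosl1 and Fosl2 0.41 and 0.53. Fos and Fosl1 had a rho of -0.16 in Epcam-negative against -0.07 in Epcam-positive cells, and Fos and Fosl2 of -0.10 and -0.14. The groups were not closed. Junb had 0.42 with Fos and 0.41 with Jun in Epcam-negative cells, as high as Atf3, but 0.19 and 0.21 in Epcam-positive cells. Jund had 0.52 with Fosb in Epcam-negative cells, whereas in Epcam-positive cells it had 0.58 with Fosl1, 0.51 with Fosl2 and 0.47 with Fosb. Among 36 pairs of the 9 measured members, the median rho was 0.25 in Epcam-negative against 0.22 in Epcam-positive cells, with 32 positive pairs in each. Cells of a population share a plate, a sort and the scaling to gene reads, and these values are descriptions without a test. Over 5 other settings the Fos and Jun rho ran from 0.57 to 0.76 in Epcam-negative cells, and over 4 from 0.36 to 0.52 in Epcam-positive cells. The rho of Fos and Fosl1 stayed negative in Epcam-negative cells (-0.22 to -0.09) and ran from -0.18 to 0.03 in Epcam-positive cells.

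**Figure D3:**
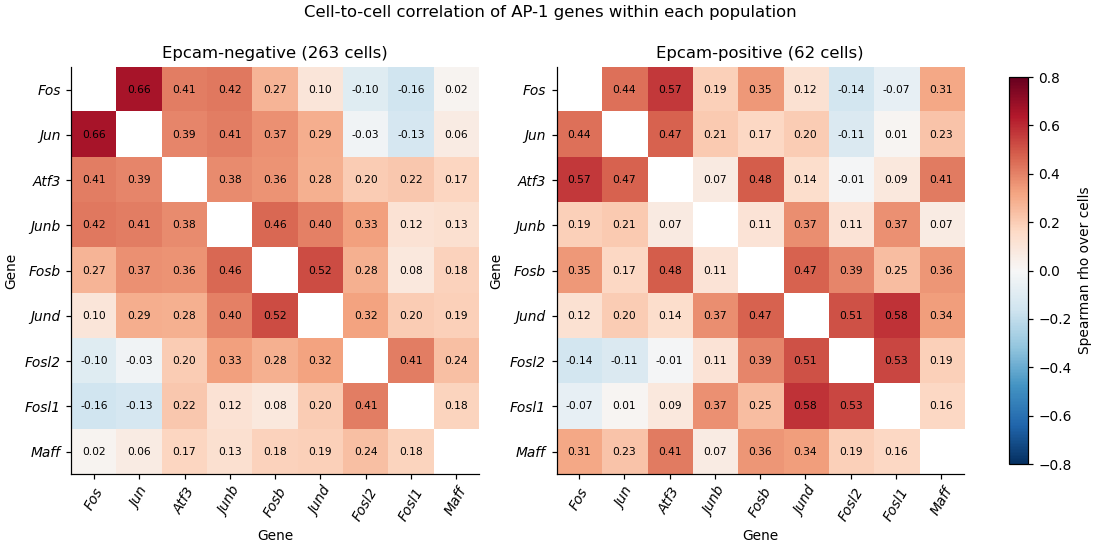
Spearman's rho over cells between the 9 measured AP-1 genes, for Epcam-negative cells (left) and the 62 Epcam-positive cells (right); red is positive and blue negative. In both, Fos, Jun and Atf3 make 1 red block and Fosl1 with Fosl2 another, while Fos with Fosl1 is -0.16 (Epcam-negative) and -0.07 (Epcam-positive).

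**Figure D4:**
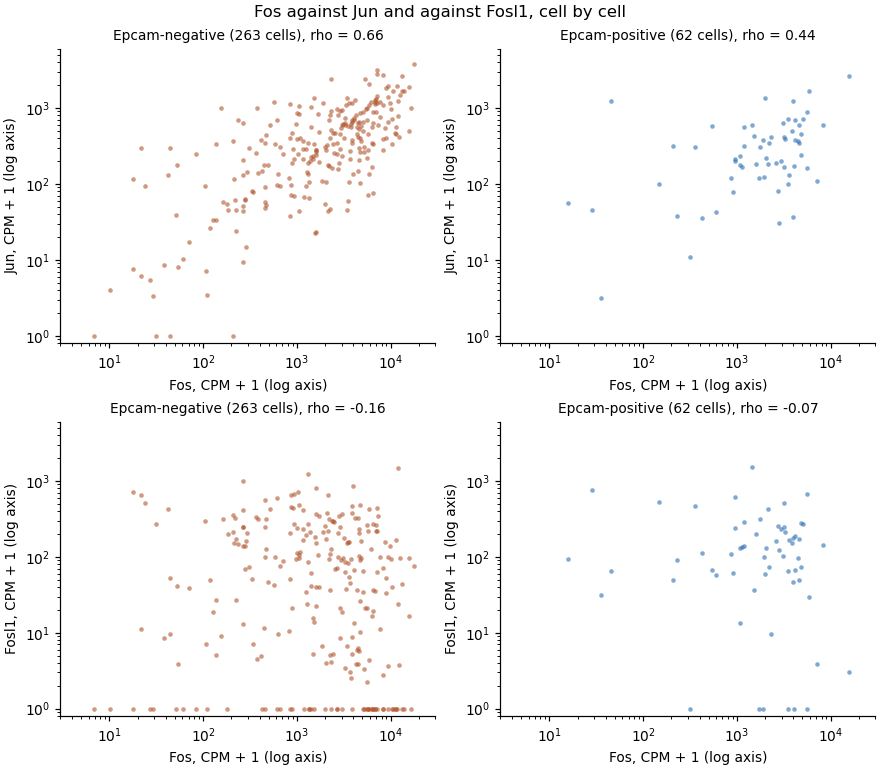
Fos (horizontal axis) against Jun (upper row) and Fosl1 (lower row), each point 1 cell, as CPM + 1 on log axes, Epcam-negative cells left and Epcam-positive cells right. Jun follows Fos (rho 0.66 in Epcam-negative, 0.44 in Epcam-positive cells), whereas cells with high Fos include many with Fosl1 at 0 in the Epcam-negative population.

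The genes most like each member lay largely among other early response genes. Among 7212 genes in Epcam-negative cells, the non-members closest to Fos were Dusp1, a phosphatase that switches off mitogen-activated kinases (rho 0.71), and Zfp36, which destabilises mRNAs (0.64). Jun ranked 2 of all those genes for Fos, and Fos ranked 1 for Jun. For Jun they were the zinc finger factor Egr1 (0.64) and Ier2 (0.58), and for Junb Egr1 (0.57) and Zfp36 (0.55). Fosb had a rho of 0.64 with Zfp36l1, a relative of Zfp36, and Jund was closest to the histone demethylase gene Kdm6b (0.50) and to Btg2 (0.49). Fosl2 was closest to the nuclear receptor gene Nr4a1 (0.50) and Kdm6b (0.48). Fosl1 was closest to Tsc22d1 and Gprc5a (0.47 each), and Atf3 to the small heat shock gene Hspb1 (0.44) and Ier2 (0.42). Maff had the weakest neighbours, Sqstm1 and Rnf19a (0.29 each).

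Among 7145 genes in the fewer Epcam-positive cells, the single closest non-members differed from those named above. They were Ints10 for Fos (0.51), Irs2 for Fosb (0.63), Ifrd1 for Fosl1 (0.54), Sik1 for Fosl2 (0.59), Klf6 for Jun (0.45), Csrnp1 for Junb (0.50), Rnf11 for Jund (0.59), Bhlhe40 for Atf3 (0.52) and Ipo5 for Maff (0.47). For some members the 5 closest non-members still overlapped between the populations. Egr1 was among them in both for Fos (0.47 in Epcam-positive cells), Trib1 and Klf4 for Fosb, Tsc22d1 and Nr4a1 for Fosl2, and Zfp36l1 for Jund. For the other members none was shared. In Epcam-positive cells some members themselves ranked high: Atf3 ranked 1 for Fos and for Jun, and Jund ranked 1 for Fosl1. For Junb the best-ranked member was Jund, at rank 32.

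Within the populations the members were also set beside genes of cell state. In Epcam-negative cells the rho of the 9 members with Vim lay between -0.10 (Junb) and 0.16 (Jun), and with Krt14 between -0.15 (Maff) and 0.25 (Atf3). Fosl1 had a rho of -0.29 with the collagen gene Col1a1 there, and Junb of 0.29 with the receptor gene Pdgfrb. In Epcam-positive cells Fosl2 had a rho of -0.47 and Fos of 0.37 with Krt14. The number of genes per cell moved with some members in Epcam-negative cells, with a rho of -0.28 for Fosb, 0.23 for Fos and 0.21 for Fosl1, and its part in their values was not tested. The heat shock genes gave no single pattern: in Epcam-negative cells Hspa1a had a rho of 0.33 with Fos, 0.32 with Jun, 0.00 with Fosl1 and -0.03 with Fosl2, whereas Dnajb1 had 0.16 with Fos, 0.17 with Jun, 0.29 with Fosl1 and 0.27 with Fosl2.

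The members were then followed over 4 clusters of cells, which were made without the 10 genes and are given by number. Cluster 1 (leading genes Ly6d, Lypd3 and Epcam) held 18 Epcam-negative and 60 Epcam-positive cells. Cluster 2 (Scara5, Fmod and Acan) held 75 Epcam-negative and 2 Epcam-positive cells, cluster 3 (Col14a1, Sfrp2 and Igf1) 90 Epcam-negative cells and cluster 4 (Serpinb9b, Slc38a1 and Akap12) 80 Epcam-negative cells. Atf3 was highest in the Epcam-negative cells of cluster 1, at 1431 CPM, against 1101 CPM in its Epcam-positive cells, and was at 712, 495 and 296.6 CPM in the Epcam-negative cells of clusters 2, 3 and 4. Its lower level in the Epcam-negative population was thus not seen within cluster 1, and without those 18 cells its log2 ratio was -1.11. Fosl1 was also highest in the Epcam-negative cells of cluster 1, with 317.9 CPM in Epcam-negative and 166.2 CPM in Epcam-positive cells of cluster 1, and 215.9, 101.5 and 91.5 CPM in Epcam-negative cells of clusters 2, 3 and 4.

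Fosb and Junb were lowest in cluster 4 among Epcam-negative cells. Fosb was at 885 CPM in Epcam-negative and 416.6 CPM in Epcam-positive cells of cluster 1, and Epcam-negative cells of clusters 2, 3 and 4 were at 1039, 1229 and 412 CPM, so that cluster 4 was at the level of the Epcam-positive cells. Junb was at 424 CPM in Epcam-negative and 301.5 CPM in Epcam-positive cells of cluster 1, and the Epcam-negative cells of clusters 2 to 4 were at 602, 516 and 247.8 CPM. Fosl2 was highest in cluster 2, at 416 CPM, and at 306.4 CPM in cluster 3 and 161.4 CPM in cluster 4, against 200.5 CPM in Epcam-negative and 142.8 CPM in Epcam-positive cells of cluster 1. Fos ran from 2792 to 4113 CPM over the 4 sets of Epcam-negative cells and was 2862 CPM in the Epcam-positive cells of cluster 1. Jun differed least, with 443 to 581 CPM in Epcam-negative cells and 422.5 CPM in Epcam-positive cells of cluster 1.

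**Figure D5:**
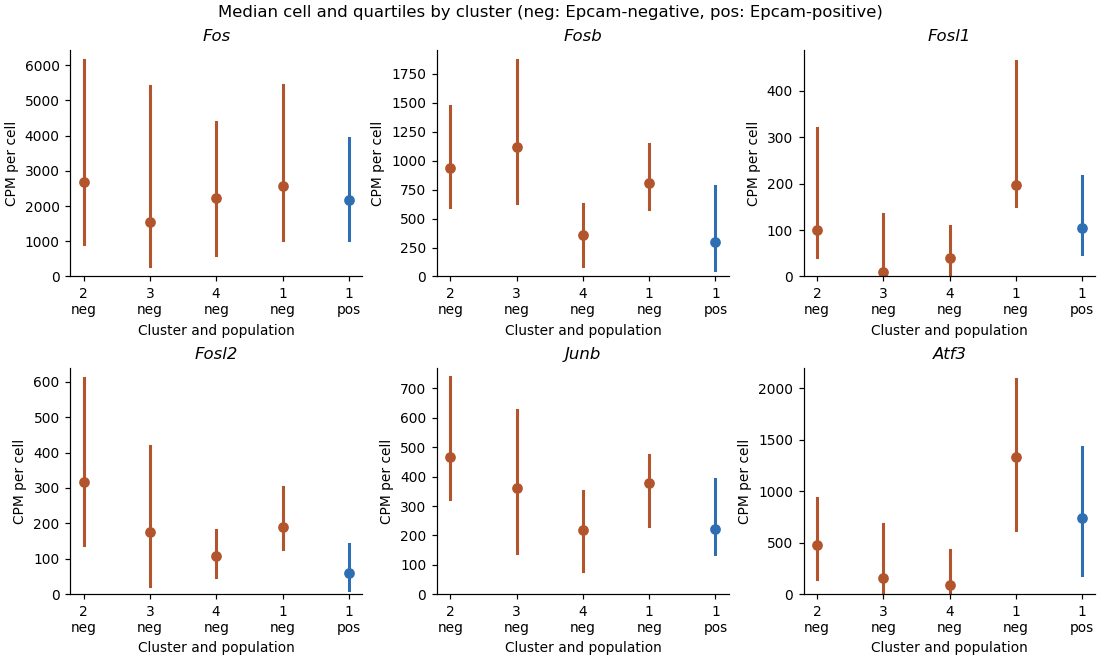
Median (point) and quartiles (bar) of CPM per cell for 6 AP-1 genes, by cluster and population; brown, Epcam-negative cells of clusters 2, 3, 4 and 1; blue, Epcam-positive cells of cluster 1. Fosb and Junb are low in cluster 4, and Atf3 and Fosl1 are highest in the Epcam-negative cells of cluster 1.

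Other genes of the pathway were described from fixed lists, by counts of measured genes at least 2-fold apart, beside the shares of all genes given above. Of 10 measured further AP-1 partners, 1 was higher in Epcam-negative cells, the repressor gene Bach2 (14.4 CPM in Epcam-negative and 2.09 CPM in Epcam-positive cells, log2 ratio 2.32), 0 were lower and the median was 0.03. Of 17 upstream kinases and factors 0 were higher and 3 lower: Rps6ka1 (-2.01), Map3k5 (-1.37) and Map3k1 (-1.11), kinases of the mitogen-activated cascades, with a list median of -0.14. Of 8 phosphatases of these kinases, Dusp8 (1.31), Dusp10 (1.10) and Dusp4 (1.03) were higher, Dusp7 (-1.66) was lower and the median was 0.60, but with spike-in scaling 0 were higher, 2 lower and the median was 0.25.

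Among 16 other immediate early genes, 12 were higher by 2-fold or more in Epcam-negative cells and 0 lower, with a median log2 ratio of 1.28. The matricellular gene Ccn1 was at 1386 CPM in Epcam-negative and 255.02 CPM in Epcam-positive cells (2.44), and the nuclear receptor genes Nr4a3 and Nr4a2 had ratios of 2.13 and 1.90 and the GTPase gene Gem of 1.95. With spike-in scaling 8 of the 16 were at least 2-fold higher. The members with their median of 0.37 thus lay below the median of that list. Of 10 heat shock genes, 0 were higher and 1, Hspb1 (Epcam-negative 169.5 and Epcam-positive 369.5 CPM, log2 ratio -1.12), was lower, with a median of 0.07.

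Of 17 genes known as AP-1 targets, 7 were higher by 2-fold or more in Epcam-negative cells and 3 lower, and the median of 0.37 did not stand for either group. The stromelysin gene Mmp3 (3.76), the cytokine gene Il6 (3.28), the osteopontin gene Spp1 (3.19) and the collagenase gene Mmp13 (3.09) were higher. The epidermal envelope gene Ivl (-2.67), the gelatinase gene Mmp9 (-2.49) and the growth factor gene Hbegf (-1.77) were lower. Ivl was present in 0.76% of Epcam-negative and 9.68% of Epcam-positive cells, Mmp9 in 4.56% and 22.6%, and Hbegf in 60.1% and 91.9%. Spp1 and Mmp3 are also among the leading genes of clusters 2 and 3.

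The well labelled 50 cells, sorted as Epcam-negative, gave a reading of the members in many cells at once. It had 428 Fos reads, 2763 CPM (2508 to 3038), and 1239.5 CPM (1070.4 to 1428) of Fosb, against sums of 3345 and 904 CPM over single Epcam-negative cells, so that Fos was below and Fosb above them. Fosl1 (154.9 CPM) and Fosl2 (329 CPM) had intervals that held the single-cell sums. Jun was at 161.4 CPM (104.4 to 238.3) and Junb at 96.8 CPM (54.2 to 159.7), below the single-cell sums of 538.4 and 453 CPM. Jund, with only 4 reads, was at 25.8 CPM (7.04 to 66.1), below its single-cell sum of 71.5 CPM. Atf3 was at 264.7 CPM (189.9 to 359.1), also below. This is 1 well with 154897 gene reads.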

How the data were processed

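RNA of single sorted cells was amplified as full-length cDNA without molecular identifiers (Smart-seq2), with spike-in RNA in each well. The deposited values are raw read counts per gene and spike-in. Per the submitters' processing notes, cutadapt 1.13, STAR 2.5.2b, HTSeq 0.6.0 and build GRCm38 were used. No source used here gives the annotation release or the strand setting. Of 49585 gene rows, 49326 matched a symbol in GENCODE vM21.

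A cell was kept with at least 100000 gene reads and 2000 genes, at most 20% mitochondrial reads and at most 50% spike-in reads. Counts were summed per population and scaled to CPM, and ratios used a pseudocount of 1 CPM. For CPM, exact 95% Poisson intervals were used, for shares of cells Clopper-Pearson intervals, and for ratios intervals from the binomial split of the reads. The intervals of CPM and ratios cover the counting of reads only. They can be too narrow even for that, because amplified reads carry no identifier of their molecule. Those of shares treat cells as independent draws. None covers spread between animals, since each population is 1 sample. Leiden clusters (Scanpy 1.11.5, 2000 variable genes, 20 components, 15 neighbours, resolution 0.5) left out the 10 members. No doublet caller was run, since single cells were gated in the sort. All 10 members are named, from each list the 2 to 4 measured genes with the largest ratios and any 2-fold against the list's median, and the closest 2 (Epcam-negative) or 1 (Epcam-positive) non-member genes by rho. Alternatives included other filters, scaling by TMM (edgeR 4.0.16), median of ratios or spike-ins, other pseudocounts and plate columns. The members and lists were chosen with earlier results of these data known. Some items that these rules or the labels name are not reported here.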

Additional observations from a re-analysis of the deposited data

Results flagged for a closer look

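In wells outside the comparison, 3 levels lay above the well labelled 0 cells among the Epcam-negative wells, by counting intervals on CPM. The well labelled 50 cells, sorted as Epcam-negative, was at 2763 CPM (2508 to 3038) of Fos and 1239.5 CPM (1070.4 to 1428) of Fosb, and the well labelled 0 cells in row B at 2821 CPM (2501 to 3172) of Fos. The upper bounds in that well labelled 0 cells, with 4018 gene reads, were 1798 CPM for Fos, from 2 reads, and 918 CPM for Fosb, from 0 reads. No other member lay above its interval in that well. With so few reads each upper bound there was 918 CPM or more, which members at low levels could not pass, so nothing follows for them. Jun lay below its interval there (271.2 to 2549 CPM), at 161.4 CPM in the well labelled 50 cells and 141.1 CPM in the well labelled 0 cells in row B. That interval rests on only 4 reads in a nearly empty well.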

How the results depend on the processing

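No paired analysis was possible because the labels number no replicates across populations and each population is 1 sample. The median log2 ratio of the measured members, 0.37, became 0.50 with TMM, 0.48 with median-of-ratios and 0.015 with spike-in scaling, 0.23 in plate columns 1 to 12, 0.59 in columns 13 to 24, 0.50 without the top cell of each gene and 0.46 at a minimum of 50 CPM. The median of all genes, -0.08, became 0.06, 0.04 and -0.45 under the 3 scalings. The count of members at least 2-fold higher, 2, became 1 without a filter on cells, with the mean of the cells' CPM and with a pseudocount of 10 CPM, and 0 with spike-in scaling and in plate columns 1 to 12. The count of members at least 2-fold lower, 0, became 1 with the stricter filter, with spike-in scaling, in plate columns 1 to 12, without the 18 Epcam-negative cells of cluster 1 and with no minimum level. Other alternatives kept both counts, and no called ratio changed its sign. Over 12 alternatives Fos was negative in 2 and Maff in 1, Fosb was at least 2-fold higher in 10, Fosl2 in 7 and Atf3 at least 2-fold lower in 4. Of 20 shares of cells, another thinning seed kept all within their intervals, while calling a gene present at 1 read moved 16 and at 20 reads 17. The list counts without the cluster 1 cells and with spike-in scaling were chosen after seeing the data: without those cells and with that scaling, the heat shock median became -0.03 and -0.27 and the target median 0.37 and 0.02. The strand setting, 1 sample per population and 62 Epcam-positive cells limit these values, and genes at a few reads per cell, such as Maff and Batf3, are limited by depth.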

Other observations

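Cdkn1a, which encodes the cell cycle inhibitor p21, was set beside the members in both populations. Its Spearman's rho was 0.39 in Epcam-negative against 0.38 in Epcam-positive cells with Fosl2, 0.35 and 0.52 with Fosl1, 0.35 and 0.41 with Junb, and 0.33 and 0.42 with Jund. With Fos it was 0.07 in Epcam-negative against 0.11 in Epcam-positive cells, and with Jun 0.03 against 0.07. Atf3 had 0.38 in Epcam-negative against 0.15 in Epcam-positive cells. The proliferation gene Mki67 had rho values between -0.10 (Fosb and Jund) and 0.11 (Fosl1) with the 9 measured members in Epcam-negative cells, and of -0.29 with Junb and with Jund in Epcam-positive cells. Top2a, also a proliferation gene, ran from -0.25 (Fosb) to 0.09 (Fosl1) in Epcam-negative cells, with -0.18 for Jund and -0.14 for Junb. In Epcam-positive cells it had -0.22 with Junb and -0.23 with Jund. These values are over the kept Epcam-negative and 62 Epcam-positive cells that share a plate and a scaling. Cdkn1a, Mki67 and Top2a were chosen after their values were seen.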
